A study of Homo sapiens with 30 samples.

Results

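The RNA content of U-87 MG cells that carried a LARP6 variant without its N-terminal region (ΔNTR) was set against that of the parental U-87 MG line. U-87 MG cells are a long-used glioblastoma line of human origin, and LARP6 is an RNA-binding protein with a central La-module that contacts RNA and intrinsically disordered ends. The members were the genes with at least 1 CPM (counts per 1000000 counted reads) in one of the 2 long-RNA libraries, which left 14650 of 62750 gene identifiers. CASZ1 was just inside that limit, at 1.00 CPM in ΔNTR and 0.373 in parental, and LINC02606 was just outside it, at 0.481 and 0.970 CPM.

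The study made total RNA libraries to scale its crosslinking data for transcript abundance. Each of 6 lines had a library labelled long RNA, with paired reads of 150 nt (PE150). A separate library of each line was labelled small RNA, with short reads of 50 nt (SE50). The lines were parental U-87 MG and U-87 MG cells with doxycycline-inducible, myc-tagged LARP6 that was full-length (FL) or lacked the N-terminal region (ΔNTR, residues 2 to 83), the La-module (ΔLa-module), both of these (ΔNTD) or the C-terminal region (ΔCTR). Per the labels, doxycycline was at 60 ng/mL for 24 h. The variants came from lentiviral vectors with a puromycin marker that only the variant lines received, so infection, selection, induced protein and each line's own history cannot be told apart in a comparison with parental. All lines kept their own LARP6 gene, so ΔNTR was present beside the endogenous protein. There was 1 library of each kind per line, so no difference below has a replicate check and no p-value is given. Instead, each ratio of 2 counts is given with its exact 95% interval, which covers counting error alone, and ΔNTR is set beside the range of the other 5 libraries.

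The 6 PE150 libraries held 25027075 (ΔNTR) to 28692476 (ΔLa-module) counts in genes, or 62.2% to 65.6% of their reads, and mitochondrial genes took 2.23% to 2.71% of the gene counts. ΔNTR was at the edge of several measures. It had the lowest gene share (62.2%, with 64.2% in parental) and the most reads mapped to several places (6.59%, 5.69% in parental). Reads assigned to no gene were also most frequent there (24.3%, 23.3% in parental). Its protein-coding share of gene counts was lowest (96.2%, 96.7% in parental), and it had the most genes at 1 CPM (14307, 14052 in parental). All 8 glioma and mesenchymal markers of the line, such as VIM, CD44 and NES, were above 1 CPM in every library. Markers of other cell types were mixed. The astrocyte markers GFAP and AQP4, the oligodendrocyte markers SOX10 and MOG and all 5 immune markers were below 1 CPM in every library. At least 1 CPM in every library was reached by 2 of 6 astrocyte, 2 of 6 oligodendrocyte, 3 of 6 neuron, 0 of 4 endothelial and 1 of 5 epithelial markers. Highest of these were the astrocyte gene SLC1A3 (46.7 to 59.7 CPM) and the neuron gene SNAP25 (57.9 to 65.7 CPM). The induced construct was codon-optimised, so reads of the LARP6 gene do not check the labels. LARP6 itself stood at 53.5 CPM in parental, 61.0 in FL, 51.6 in ΔCTR, 56.8 in ΔNTD, 56.6 in ΔLa-module and 74.96 in ΔNTR.

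Cells answer low oxygen through the hypoxia-inducible factors (HIF). In oxygen, prolyl hydroxylases of the EGLN family mark the HIF alpha subunits, and the VHL ligase then has them degraded, so that control is on the protein more than on its mRNA. When stable, HIF pairs with ARNT and binds a short core, ACGTG or GCGTG, near genes for glucose uptake, glycolysis, pH control, mitophagy, vessel growth and matrix crosslinking. In glioblastoma this programme is best known from the cells around necrotic areas.

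The genes that were higher in ΔNTR included many names from this programme. On the log2(CPM + 1) scale, 102 genes were at least 2-fold higher in ΔNTR than in parental, or 0.696% of the 14650 tested, and 7 were at least 2-fold lower, or 0.0478%. The median difference over all genes was -0.00 and its SD across genes was 0.29. Most of the differences were modest, since 78 of the 102 lay between 2-fold and 3-fold, 16 between 3-fold and 4-fold and 8 above that. CA9, SLC2A1, SLC16A3, AK4, BNIP3, NDRG1, DDIT4, LOX, ANGPTL4 and PDK1 were among them. The gene groups described below were chosen with earlier results of these data known, so their counts are not separate support. In such bulk RNA, more RNA per cell and more cells with that RNA cannot be told apart.

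In the rest of the series the same size of difference was rarer. The 10 pairs of libraries that leave ΔNTR out had 0 to 58 genes past 2-fold, and the 6 of them that also leave out parental had 0 to 5. With ΔNTR as one of the pair, 109 genes passed 2-fold against parental, 28 against FL, 18 against ΔCTR, 10 against ΔNTD and 2 against ΔLa-module. ΔLa-module and ΔNTD differed from parental at 58 and 47 genes, and FL and ΔCTR at 8 and 11. ΔNTR was therefore farthest from parental, FL and ΔCTR were nearest, and ΔLa-module was the line nearest to ΔNTR.

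ΔNTR was above the range of all 5 other libraries at 92 of the 102 higher genes and below it at 5 of the 7 lower ones. Across all tested genes it was above that range at 3750, or 25.6%, and below it at 3456, or 23.6%. The choice of members fixes much of the first count, since parental is one of the 5. Measured against the median of the other 4 variant lines, 4 genes were at least 2-fold higher in ΔNTR (GPR146, FER1L4, DEPP1 and SAT1) and none was at least 2-fold lower. The median of the 102 genes was 1.22 against parental and 0.59 against the other 4 lines.

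The remaining lines took intermediate places. Among the 102 higher genes the median difference from parental was 0.47 in FL, 0.55 in ΔCTR, 0.87 in ΔNTD and 0.95 in ΔLa-module. These values share the parental library with the choice of the genes. Against FL, which the choice did not use, the same 102 genes had a median of 0.05 in ΔCTR, 0.37 in ΔNTD and 0.50 in ΔLa-module, while the medians over all genes lay within 0.01 of 0. Both ΔLa-module and ΔNTD were above both FL and ΔCTR at 81 of the 102 genes (79.4%) and at 2867 of all 14650 (19.6%). Of the 102 genes, 57 passed 2-fold against parental in ΔNTR and in none of the other 4 lines, 39 in 1 to 3 of the others and 6 in all of them.

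Single transporters of glucose and acid had large differences, while the group of acid and lactate genes as a whole did not. CA9 (GRCh38, chr9:35673928-35681159, plus strand), a cell-surface carbonic anhydrase that helps to export acid, stood at 56.2 CPM in parental, 114 in FL, 129 in ΔCTR, 169.9 in ΔNTD, 201 in ΔLa-module and 241 in ΔNTR, a ratio of 4.29 to parental (4.05 to 4.54). The glucose transporter SLC2A1 followed the same order, from 77.0 CPM in parental through 129 in FL, 133 in ΔCTR, 203 in ΔNTD and 243 in ΔLa-module to 260.0 in ΔNTR, a ratio of 3.38 (3.21 to 3.55). The lactate exporter SLC16A3 kept the same line order, from 43.8 CPM in parental to 75.7, 89.0, 96.3 and 123 in FL, ΔCTR, ΔNTD and ΔLa-module and 159 in ΔNTR. In each of these genes parental was lowest, ΔNTR was highest and no other library reached it. The second lactate transporter SLC16A1 (log2 difference 0.31) and CA12 (0.30) were under 2-fold. Of 9 measured genes for acid and lactate handling, 2 were at least 2-fold higher, beside 0.696% of all genes, and the median was 0.17. The range of the other libraries had 3 of the 9 above it and 3 below, beside 25.6% and 23.6% of all genes. The 3 below were the carbonic anhydrase CA2 (-0.31) and the bicarbonate transporters SLC4A4 (-0.13) and SLC4A7 (-0.14). Against the other 4 lines the median was 0.0046.

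The glycolytic enzymes stood higher in a graded way. Of 23 measured transporters and enzymes from glucose to lactate, 4 were at least 2-fold higher, beside 0.696% of all genes. At least 1.5-fold higher were 10, beside 574 of all 14650 genes. None of the 23 was 1.5-fold lower, and their median was 0.46 against -0.00 over all genes. ΔNTR exceeded every other library at 20 of them, beside 25.6% of all genes. ENO2, an enolase isoform, read 169 CPM in parental, 232 in FL, 224 in ΔCTR, 282 in ΔNTD, 305 in ΔLa-module and 371 in ΔNTR. PFKFB4, which sets the fructose 2,6-bisphosphate that drives phosphofructokinase, read 75.9, 93.8, 96.6, 117, 129 and 158 CPM in the same order. PGK1, an ATP-yielding enzyme of the pathway, went from 682 CPM in parental to 1219.5 in ΔNTR and LDHA, which makes lactate, from 2407 to 3638, both under 2-fold. For LDHA the next library, ΔLa-module, was at 3583 CPM, so ΔNTR led it by only 0.02 on the log2 scale. The constitutive hexokinase HK1 differed by 0.00, and the muscle-type PFKM was at -0.24. GAPDH, often taken as a reference gene, was at 3738 CPM in parental and 4795 in ΔNTR (ratio 1.28), while ACTB was at 6991 and 7174 CPM.

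Genes that turn mitochondria away from respiration or remove them were next. PDK1, a kinase that shuts pyruvate out of the mitochondrion, measured 87.9 CPM in parental, 140.1 in FL, 138 in ΔCTR, 188 in ΔNTD, 199 in ΔLa-module and 216 in ΔNTR (ratio 2.46, 2.35 to 2.59). BNIP3, a mitophagy receptor, measured 157, 259, 289, 410.0, 416 and 499 CPM in that order (ratio 3.18, 3.07 to 3.29), and the related BNIP3L had a log2 difference of 1.12. AK4, a mitochondrial adenylate kinase, measured 121, 219.8, 226, 329.6, 332 and 389 CPM. Thus each of these was lowest in parental, middling in FL and ΔCTR, and highest in ΔNTR. The receptor FUNDC1 (-0.10) and the kinase PDK2 (-0.12) were within 0.2 of parental. Of 9 measured genes of this group, 3 were at least 2-fold higher, beside 0.696% of all genes, and the median was 0.20 in ΔNTR and 0.22 in ΔNTD. With GC centring (each library centred on parental among genes of like GC content) the median in ΔNTR was 0.014. Processed pseudogenes of AK4 and BNIP3, AK4P1 and BNIP3P1, were also at least 2-fold higher, but near-identical copies can take each other's reads and these calls are uncertain.

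Among glycogen genes, several on the side of synthesis were higher. GYS1, the glycogen synthase, measured 63.6 CPM in parental, 86.4 in FL, 91.9 in ΔCTR, 112 in ΔNTD, 126 in ΔLa-module and 152 in ΔNTR. PPP1R3C, a scaffold that brings a phosphatase to glycogen, had a ratio of 2.74 (2.45 to 3.08). Its relative PPP1R3B (0.95 on the log2 scale), PGM1 (0.79) and the branching enzyme GBE1 (0.62) were 1.5-fold to 2-fold higher. The phosphorylases that break glycogen, PYGL (0.04) and PYGB (0.06), were close to parental. Of the 11 measured genes of this group, 8 were above parental and 2 were at least 2-fold higher, beside 0.696% of all genes. The lowest difference was -0.21, and 1 gene was below the range of the other libraries. The median was 0.26, below the 0.38 of ΔNTD and the 0.30 of ΔLa-module.

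Secreted factors formed the group with the highest median. Of 11 measured angiogenic and endocrine factors, 5 were at least 2-fold higher, beside 0.696% of all genes, and the median was 0.93. ANGPTL4, a secreted inhibitor of lipoprotein lipase, was at 7.24 CPM in parental, 9.51 in FL, 13.2 in ΔCTR, 17.7 in ΔNTD, 19.8 in ΔLa-module and 29.8 in ΔNTR (ratio 4.12, 3.51 to 4.85). VEGFA, the main growth factor of vessels, was at 473, 574, 575, 685, 773 and 833 CPM (ratio 1.76, 1.72 to 1.80), which is under 2-fold but above all other libraries. The vasodilator peptide ADM went from 26.1 CPM in parental to 65.4 in ΔNTR, and IGFBP3, which binds insulin-like growth factors, from 321 to 678. APLN, the apelin peptide, did not single out ΔNTR: it was at 54.6 CPM there, 52.2 in ΔNTD and 59.3 in ΔLa-module, against 18.2 in parental. VEGFC differed from parental by 0.02.

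Several matrix-modifying enzymes were higher, while the type I collagen genes were lowest in ΔNTR. LOX, which crosslinks collagen, measured 197 CPM in parental, 304 in FL, 336 in ΔCTR, 419.8 in ΔNTD, 425 in ΔLa-module and 538 in ΔNTR (ratio 2.73, 2.64 to 2.82). The lysyl hydroxylase PLOD2 (log2 difference 0.88), the oxidase ERO1A (0.80) and the prolyl hydroxylases P4HA1 (0.73) and P4HA2 (0.61) were over 1.5-fold higher, although P4HA1 was higher still in ΔNTD and ΔLa-module. COL1A1 (GRCh38, chr17:50184101-50201632, minus strand), whose mRNA is a long-studied LARP6 ligand, measured 856 CPM in parental, 729.9 in FL, 995 in ΔCTR, 894 in ΔNTD, 974 in ΔLa-module and 629 in ΔNTR, the lowest of the 6 (ratio 0.735, 0.721 to 0.751). COL1A2 was also lowest in ΔNTR, at 586 CPM against 631 to 773 in the others. COL5A1 went the other way, at 582 CPM in ΔNTR against 366 to 428 elsewhere. Of 21 measured collagens and matrix proteins none passed 2-fold in either direction, and the median was -0.14.

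Of the oxygen-sensing genes themselves, 2 stood apart from the rest. EGLN1, the main prolyl hydroxylase and itself a known HIF target, stood at 10.9 CPM in parental, 14.7 in FL, 14.8 in ΔCTR, 20.2 in ΔNTD, 24.1 in ΔLa-module and 30.5 in ΔNTR (ratio 2.81, 2.45 to 3.23). HIF3A, also induced by HIF, was low throughout, at 0.709 CPM in parental and 4.44 in ΔNTR (ratio 6.27, 3.83 to 10.8). The other factors and regulators differed less: HIF1A was at 727 CPM in parental, 783 in FL, 818 in ΔCTR, 828 in ΔNTD, 779 in ΔLa-module and 796 in ΔNTR. ARNT (-0.14), VHL (-0.12), HIF1AN (-0.04) and EGLN2 (0.02) lay within 0.2 of parental, and EPAS1, which encodes HIF2 alpha, was at 0.33. Over the 8 measured genes 2 were at least 2-fold higher, beside 0.696% of all genes, and the median was 0.08. Among 13 histone demethylases, which need oxygen as a substrate, KDM4B (0.91) and KDM3A (0.71), both known targets of HIF, were highest, none passed 2-fold, and the median was 0.23, or 0.12 with GC centring and 0.12 against the other 4 lines.

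A wider list of hypoxia and glycolysis genes shares members with the groups above, such as CA9, BNIP3, ANGPTL4 and ENO2. Like those groups, it was written with earlier results of these data known, so neither it nor they are separate support. Of its 29 measured genes, 11 were at least 2-fold higher, beside 0.696% of all genes, none was lower, and the median was 0.82. All 29 were above the range of the other 5 libraries, beside 25.6% of all genes, though the margin went down to 0.00 at HK1, and 28 were above it with DESeq2 size factors, total counts or unstranded counts and 27 with GC centring. The medians of the same list against parental were 0.30 in FL, 0.34 in ΔCTR, 0.57 in ΔNTD and 0.63 in ΔLa-module. No test was made of the list.

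To show what the promoters of these genes hold, the 250 bases before and 50 after each gene's start were searched for ACGTG and GCGTG on both strands (that is, also CACGT and CACGC). RefSeq promoters (GRCh38.p14) were matched by symbol for 71 of the 102 higher genes and for 10495 of the tested ones. ACGTG was present in 29 of the 71 (40.8%), in 27.0% of all tested genes with a promoter and in 21.6% of all 27305 promoters. For GCGTG the shares were 47.9%, 50.5% and 36.3%, so that core was no more frequent among the higher genes. Either core was present in 48 of the 71 (67.6%), close to the 63.1% among tested genes with a promoter. The promoters of the higher genes had a median GC content of 69.0% against 65.0% among tested genes, which by itself bears on how often such letters occur. The stretches below end before the gene's start and are shown because they carry an ACGTG core, given in capitals, in a gene at least 2-fold higher in ΔNTR. They are examples and not the full set: further higher genes with the core, such as ZP1 and PPFIA4, are not printed. CACGTG, as in AK4 and BNIP3, is ACGTG read on both strands, and is also the letters of an E-box.

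DDIT4, chr10:72273744-72273863, plus strand: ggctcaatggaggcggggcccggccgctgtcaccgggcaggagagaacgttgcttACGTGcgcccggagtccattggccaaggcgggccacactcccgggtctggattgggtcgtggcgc
ANGPTL4, chr19:8363905-8363985, plus strand: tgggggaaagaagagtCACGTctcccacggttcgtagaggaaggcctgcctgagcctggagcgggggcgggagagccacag
AK4, chr1:65147405-65147524, plus strand: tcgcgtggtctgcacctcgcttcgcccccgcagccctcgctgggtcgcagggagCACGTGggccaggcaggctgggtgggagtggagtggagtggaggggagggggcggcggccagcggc
BNIP3, chr10:131981992-131982111, minus strand: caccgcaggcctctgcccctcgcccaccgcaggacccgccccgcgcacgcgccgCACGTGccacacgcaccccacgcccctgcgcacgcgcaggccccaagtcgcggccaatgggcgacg
MIR210HG, chr11:568563-568682, minus strand: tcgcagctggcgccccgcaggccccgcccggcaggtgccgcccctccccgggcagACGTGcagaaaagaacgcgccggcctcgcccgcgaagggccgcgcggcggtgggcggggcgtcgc
EGLN1, chr1:231422288-231422407, minus strand: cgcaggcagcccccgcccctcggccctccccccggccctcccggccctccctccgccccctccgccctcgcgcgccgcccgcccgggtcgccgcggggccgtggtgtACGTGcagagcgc

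One of these promoters belongs to MIR210HG, the host transcript of miR-210, a microRNA known for its induction in low oxygen. MIR210HG stood at 2.84 CPM in parental, 5.49 in FL, 6.09 in ΔCTR, 7.05 in ΔNTD, 7.41 in ΔLa-module and 10.4 in ΔNTR (ratio 3.66, 2.82 to 4.79). The mature strand, encoded at chr11:568112-568133 on the minus strand, is printed here from RefSeq (GRCh38.p14) with its seed, bases 2 to 8, in capitals.

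hsa-miR-210-3p: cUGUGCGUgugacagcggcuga

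The SE50 libraries count the MIR210 gene directly and were sequenced separately from PE150. MIR210 had 653 CPM in parental (6345 counts), 684 in FL, 986 in ΔCTR, 1096 in ΔNTD, 873 in ΔLa-module and 1221 in ΔNTR (8862 counts). ΔNTR was highest and parental lowest, with a ratio of 1.87 (1.81 to 1.93). The order differed from that of the host transcript, since ΔLa-module came below ΔCTR and ΔNTD here. The scaling factors of the SE50 libraries ranged widely, from 0.836 to 1.17. In CPM computed without those factors, MIR210 was at 616 in parental, 572 in FL, 1156 in ΔCTR, 1285 in ΔNTD, 745 in ΔLa-module and 1321 in ΔNTR. On that scale ΔNTD was close to ΔNTR, and FL, not parental, was lowest.

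Long mRNAs are thinly covered in SE50, which is labelled small RNA. Of the 102 higher genes 25 reached 1 CPM there in parental or ΔNTR, on a median of 25 counts over both libraries. A gene could thus pass that limit through ΔNTR alone, which favours higher values among the genes counted. All 25 were higher in ΔNTR than in parental, with a median log2 difference of 0.54, beside 46.8% higher and a median of -0.05 among the 3535 tested genes that reached that level. At least 2-fold in both protocols were SLC2A1 (6 and 25 counts), LOX (9 and 23), DDIT4 (35 and 62) and ZNF395 (7 and 18). SLC2A1, LOX and ZNF395 reached 1 CPM in ΔNTR only, so the limit itself bears on their place here. None of the 7 lower genes reached 1 CPM in SE50.

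A stress and amino acid group overlapped with the oxygen genes only in part. Of 24 measured genes of the amino acid and integrated stress response, 5 were at least 2-fold higher (DDIT4, SLC7A5, TRIB3, VLDLR and CHAC1), beside 0.696% of all genes. The median was 0.29 in ΔNTR, the same 0.29 in ΔNTD, 0.17 in ΔLa-module, 0.01 in FL and -0.03 in ΔCTR. DDIT4, an inhibitor of mTORC1 that both low oxygen and ATF4 are known to induce, measured 28.2 CPM in parental, 46.9 in FL, 45.8 in ΔCTR, 75.2 in ΔNTD, 99.0 in ΔLa-module and 123 in ΔNTR. SLC7A5, an importer of large neutral amino acids, had a ratio of 2.71 (2.52 to 2.91). TRIB3, a pseudokinase and ATF4 target, was at 1.75 CPM in parental, 2.59 to 3.14 in the other variant lines and 5.37 in ΔNTR. Of the 24, 10 were above the range of the other libraries, beside 25.6% of all genes, among them ATF4 itself with a difference of 0.36. Other members were closer to parental or below it: DDIT3 differed by -0.02 and the serine synthesis genes PHGDH and PSAT1 by -0.21 and 0.09. SLC7A11, the cystine importer, was at 80.0 CPM in parental and 28.7 to 48.5 in all 5 variant lines.

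The growth-restraining arrestin-domain genes and their relative TXNIP were all above the other libraries. ARRDC3 measured 82.4 CPM in parental, 113 in FL, 119 in ΔCTR, 159 in ΔNTD, 153 in ΔLa-module and 169.8 in ΔNTR. TXNIP, which limits glucose uptake, measured 296, 314, 341, 398, 377 and 409 CPM. The 5 genes had a median of 0.68 and 1 passed 2-fold. Over all genes, 25.6% were above the other libraries and 0.696% were at least 2-fold higher. MXI1, a repressor that opposes MYC and a known HIF target, stood clear of the rest, at 24.9 CPM in ΔNTR against 7.42 in parental and 9.73 to 16.1 in the other lines. DEPP1, a small protein induced by FOXO factors and low oxygen, had the largest difference after the MAGEA6 gene, with 3.58 CPM in parental, 7.02 in FL, 7.57 in ΔCTR, 14.1 in ΔNTD, 21.3 in ΔLa-module and 26.6 in ΔNTR.

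Genes of cell division were slightly but broadly lower. None of the 41 measured cell cycle genes passed 1.5-fold, the median was -0.16, and 28 of the 41 (68.3%) were below the range of the other 5 libraries, beside 23.6% of all genes. With GC centring the median was -0.11 and 24 were below the range, and centred on protein-coding genes 23 were. MKI67, the proliferation marker, was at 1151 CPM in parental, 1189 in FL, 1190.4 in ΔCTR, 1242 in ΔNTD, 1186 in ΔLa-module and 972 in ΔNTR. CCNB1, the mitotic cyclin, was at 309.8 CPM in parental, 255 to 279.7 in the other variant lines and 227 in ΔNTR. CDT1 (0.25) and E2F1 (0.25) were on the higher side. The medians in the other lines lay between -0.04 and 0.02. Of 12 heat shock genes, 9 were below the range of the other libraries, beside 23.6% of all genes, with a median of -0.15, and none passed 1.5-fold.

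**Figure D1:**
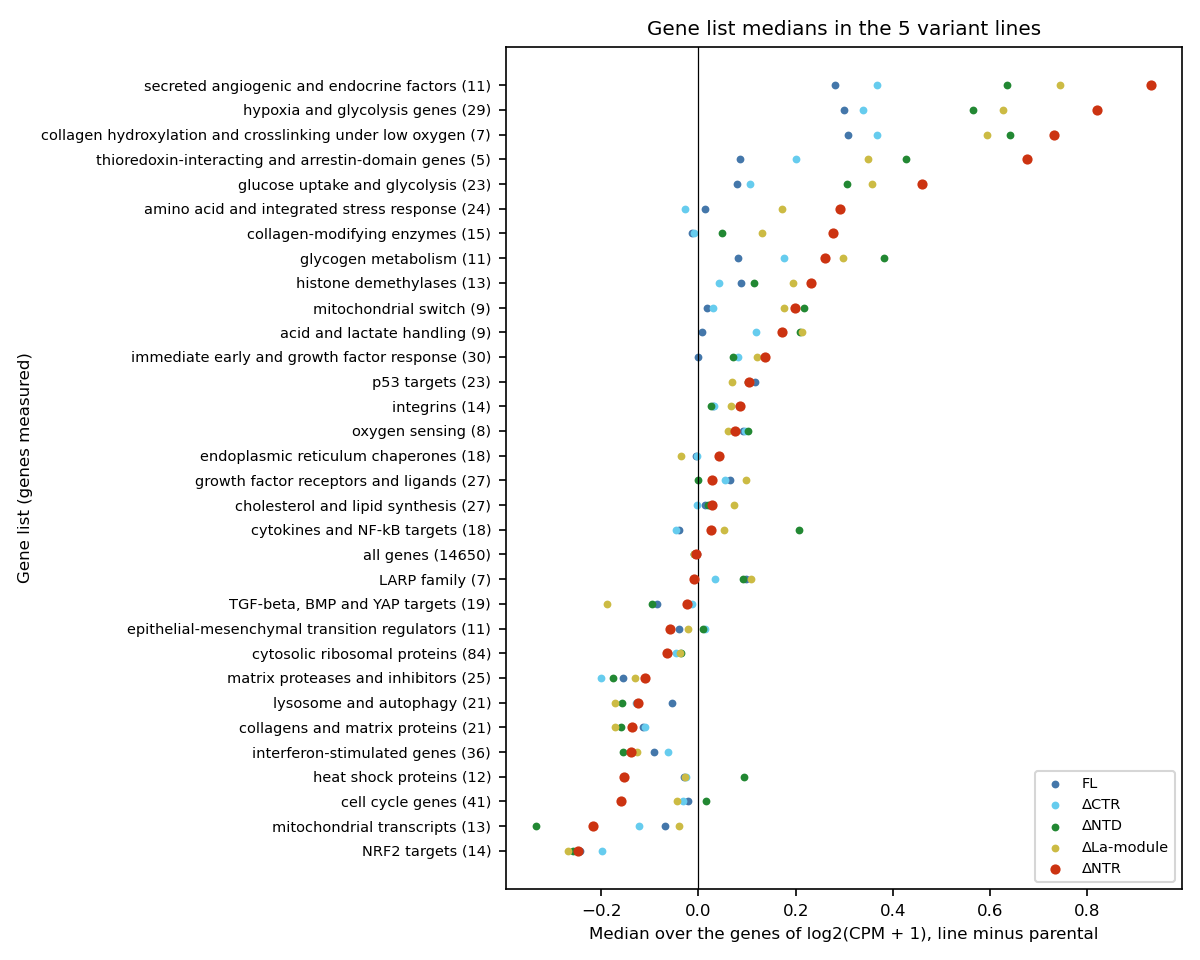
Median over the genes of each list of the difference in log2(CPM + 1) from parental, in ΔNTR (red) and the other 4 variant lines, with the number of genes measured in brackets. The median of 29 hypoxia and glycolysis genes is 0.82 in ΔNTR and 0.30 to 0.63 in the other lines, and the median of 41 cell cycle genes is -0.16 in ΔNTR and -0.04 to 0.02 in the others.

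The remaining lists held few calls. Of 36 interferon-stimulated genes none passed 2-fold and the median was -0.14, within -0.15 to -0.06 in the other lines. The median of 14 NRF2 targets was -0.25 in ΔNTR and -0.27 to -0.20 elsewhere. NQO1, its best-known target, stood at 459 CPM in parental and 206 to 277 in all variant lines, so the difference was between parental and the rest. HMOX1, which both NRF2 and HIF are known to induce, went against the list, at 114 CPM in parental, 155 in ΔLa-module and 188 in ΔNTR. The 84 cytosolic ribosomal protein genes had a median of -0.06, 14 integrins 0.08, 18 cytokines and NF-kB targets 0.03, 23 p53 targets 0.10 and 27 genes of cholesterol and lipid synthesis 0.03, with none past 2-fold. Of 15 enzymes that modify collagen, LOX alone passed 2-fold, and 11 were above the range of the other libraries, beside 25.6% of all genes. Their median was 0.28, against -0.01 in FL and ΔCTR, 0.05 in ΔNTD and 0.13 in ΔLa-module. Medians were -0.11 for 25 matrix proteases and inhibitors, -0.06 for 11 regulators of epithelial-mesenchymal transition, 0.04 for 18 chaperones of the endoplasmic reticulum, 0.14 for 30 immediate early genes and -0.02 for 19 targets of TGF-beta, BMP and YAP, none of them with a call. They were -0.12 for 21 lysosome and autophagy genes, -0.22 for 13 mitochondrial transcripts (-0.33 to -0.04 in the other lines) and -0.01 for 7 LARP family genes, again with no call. Among 319 ZNF genes and 27 growth factor receptors and ligands, 1 gene each was at least 2-fold higher, beside 0.696% of all genes, with medians of -0.04 and 0.03.

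The 15 genes farthest above the other libraries were mostly not the classical oxygen genes. RASSF7, a Ras-association protein of mitosis, led: it measured 4.55 CPM in parental, 6.73 in FL, 6.72 in ΔCTR, 6.58 in ΔNTD, 5.97 in ΔLa-module and 12.7 in ΔNTR, 0.82 above the next library on the log2 scale. FER1L4, a pseudogene transcript, followed at 2.84, 6.31, 6.68, 5.89, 9.61 and 17.1 CPM. DGKQ, a diacylglycerol kinase, was at 8.88 to 11.1 CPM in the other 5 libraries and 19.4 in ΔNTR. Unlike the oxygen genes, several of them showed no gradient among the other lines. ZBTB21, a zinc finger protein, was at 74.8 CPM in parental, 82.5 to 100.0 in the 4 other variants and 168 in ΔNTR (ratio 2.24, 2.13 to 2.37). TSEN54, a subunit of the tRNA splicing endonuclease, was at 8.25 to 11.1 CPM in the others and 18.9 in ΔNTR. The remaining ones were DIRAS1, GPR146, PTPRF, SAT1, TRIB3, MXI1, DPYSL4, CDR2L, ANGPTL4 and GPT2.

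SAT1, which starts the breakdown of polyamines, was the exception among the 102 higher genes, since parental was the lowest of the 6 libraries at the other 101. The choice of the genes fixes much of that count, since it required parental to be at least 2-fold below ΔNTR. Among all 14650 tested genes parental was lowest at 3099. SAT1 stood at 25.9 CPM in parental, 35.7 in FL, 30.5 in ΔCTR, 22.8 in ΔNTD, 23.5 in ΔLa-module and 55.9 in ΔNTR (ratio 2.16, 1.97 to 2.37). Thus ΔNTR was highest, while ΔNTD and ΔLa-module, which were close to ΔNTR at the oxygen genes, were the lowest here.

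**Figure D2:**
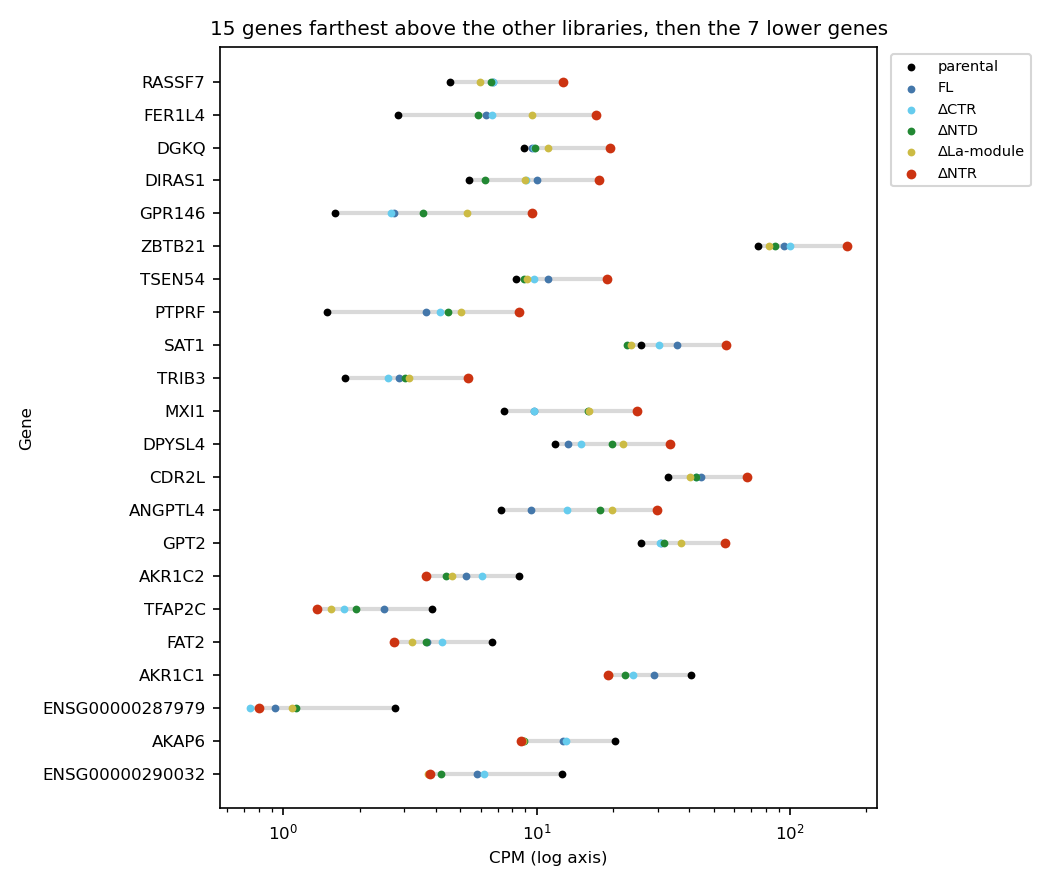
CPM (log axis) in the 6 PE150 libraries for the 15 genes farthest above the other libraries, from RASSF7 to GPT2, and for the 7 lower genes, from AKR1C2 to ENSG00000290032. Red (ΔNTR) is separate at the right in the first 15 rows, while in the last 7 rows black (parental) is separate at the right and red is the lowest point in 5 of them, often close to the next line.

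Another set separated parental from all variants. CA9, F3, FRMD3, LINC01029, MAGEA3 and MAGEA6 passed 2-fold against parental in all 5 variant lines. MAGEA6, a cancer-testis antigen, had the largest difference of all (2.68), yet it was at 0.858 CPM in parental, 7.70 in FL, 10.2 in ΔCTR, 5.89 in ΔNTD, 11.1 in ΔLa-module and 10.9 in ΔNTR. MAGEA3 and MAGEA6 are near-identical, so how their reads divide is uncertain. F3, the initiator of coagulation, was at 11.8 CPM in parental, 26.3 in FL and 50.5 in ΔNTR, below the 51.4 and 56.9 of ΔNTD and ΔLa-module. FRMD3 was at 4.70 CPM in parental and 10.9 to 12.7 in the variants, with ΔNTR the lowest of these.

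Parental was the highest of the 6 libraries at all 7 lower genes, and at 3574 of all 14650 tested genes. The choice of the 7 genes fixes much of this, since it required parental to be at least 2-fold above ΔNTR. Unlike the set above, these genes did not all pass 2-fold in every variant line. AKR1C1, an aldo-keto reductase, was at 40.8 CPM in parental, 29.0 in FL, 24.0 in ΔCTR, 22.4 in ΔNTD, 19.3 in ΔLa-module and 19.2 in ΔNTR, and its close copy AKR1C2 had a log2 difference of -1.03. Reads of these 2 can be exchanged between them. AKAP6, an anchor of protein kinase A, was at 20.3 CPM in parental and 8.69 to 13.04 in the variants. FAT2 (-1.04), TFAP2C (-1.04) and the non-coding ENSG00000287979 (-1.06) and ENSG00000290032 (-1.49) made up the rest. The last was at 12.5 CPM in parental and 3.74 to 6.17 in the variants.

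The ΔNTR library also differed from the others with GC content. Over deciles of transcript GC in protein-coding genes, the median difference from parental was between -0.09 and 0.00 in the lower 8 deciles, 0.09 in the ninth and 0.23 in the tenth. In the tenth decile the other lines were between -0.02 and 0.06, and in the first they were at 0.06 to 0.15 against -0.01 in ΔNTR. ΔNTR was above the range of the other libraries at 67.3% of the genes in the tenth decile and at 6.99% in the first, and 1.77% and 0.505% of the genes there were at least 2-fold higher. The 102 higher genes had a median GC of 54.9%, beside 47.6% over all. When every library was centred on parental within GC deciles, 95 genes were at least 2-fold higher, fewer than the 102 without it, and the hypoxia and glycolysis median went from 0.82 to 0.90. Some other list medians became smaller in size. That of the mitochondrial switch went from 0.20 to 0.014, that of histone demethylases from 0.23 to 0.12 and that of acid and lactate handling from 0.17 to 0.084. Collagens and matrix proteins went from -0.14 to -0.058 and cell cycle genes from -0.16 to -0.11. Others became larger: the amino acid and stress response went from 0.29 to 0.36, glycogen genes from 0.26 to 0.31 and p53 targets from 0.10 to 0.16. Some of the genes farthest above the other libraries went under 2-fold, among them DGKQ (0.81), TSEN54 (0.87) and CDR2L (0.77). What produced the relation with GC was not tested.

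Binding of LARP6 to the called transcripts was read from the pooled crosslinking (iCLIP) peak lists of ΔNTR and FL, made of 3 replicates each after parental peaks were subtracted. ΔNTR peaks lay in 40 of the 102 higher genes (39.2%), beside 32.2% of all tested genes, and FL peaks in 37 (36.3%), beside 31.6%. One of the 7 lower genes had a ΔNTR peak and none an FL peak. ERRFI1, an inhibitor of the EGF receptor, had the highest summed ΔNTR peak score of the called genes (156, and 182 for FL). LOX followed with 80 and 54, IGFBP3 with 79 and 33, and BNIP3L with 77 and 79.

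Peak scores depend on transcript level, so genes were compared within ranges of mean CPM. At 100 CPM or more, the median difference of 389 genes without a ΔNTR peak was -0.09, that of 727 genes with a summed score under 10 was -0.06, that of 934 genes from 10 to 50 was -0.02 and that of 353 genes at 50 or more was 0.05. From 10 to 100 CPM the medians were -0.04, 0.00 and 0.08 for 4479 genes without a peak, 2055 under 10 and 433 from 10 to 50. FL peaks gave values of the same order, from -0.08 without a peak to 0.03 at a score of 50 or more in the upper range. Median GC went with the score as well, from 44.4% without a ΔNTR peak to 49.3% at 50 or more, and with GC centred the upper range ran from -0.05 to 0.06. These differences were small beside the SD of 0.29 across genes, and the part of GC in them was not tested further.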

How the data were processed

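Long total RNA of 6 U-87 MG lines was measured with 1 PE150 library each. Per the study's methods, the authors trimmed reads with Trim Galore 0.6.10 and mapped them with STAR 2.7.10b to GRCh38.p13 (GENCODE V42); the deposited values are raw counts per gene, of which the reverse-strand column was used, since it held 8.76 to 9.71 times the forward counts. Default counting drops reads that map to several places or to overlapping genes. The deposited iCLIP peak score is the authors' sum over 3 pooled replicates, not scaled to depth.

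Counts were divided by TMM-scaled totals over the 6 libraries (edgeR 4.0.16), giving CPM; differences were taken on log2(CPM + 1). Genes had at least 1 CPM in ΔNTR or parental, and a call was a 2-fold difference, with no test because each line had 1 library. Intervals of ratios are exact 95% conditional binomial intervals (scipy 1.17.1). Positions, GC and gene types came from GENCODE v44, which held 62625 of 62750 identifiers. Peak centres were assigned to genes on the same strand. Alternatives used DESeq2 1.42.0 size factors and other filters. The code was tested on simulated counts with 200 changed genes.

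Named genes were the 15 farthest above the other 5 libraries among higher genes of at least 5 CPM, all lower genes, up to 3 leading members of each list (or its most abundant member), genes past 2-fold in both protocols, and a fixed set of reference genes; APLN, HK1, NQO1, SLC7A11 and further list members were chosen after their values were seen. The comparison, the 24 gene lists and the 8 lists of oxygen-related roles were chosen with earlier results of these data known. Columns of the other peak lists were not used.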

Additional observations from a re-analysis of the deposited data

Results flagged for a closer look

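SAT1 was at least 2-fold higher in ΔNTR than in parental (log2 difference 1.08), while ΔLa-module and ΔNTD lay below parental, by 0.14 and 0.18 on the log2 scale. It was picked out because lines moved in opposite directions from the same parental library; with 1 library per line the difference between lines was not tested.

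MIR210 was picked out because it was counted in the SE50 libraries, outside the PE150 comparison. Its ratio of ΔNTR to parental was 1.87.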

How the results depend on the processing

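No paired analysis was possible because each line had 1 library, and a shared number 1 pairs nothing; for the same reason no library could be left out of a group. With 102 genes higher and 7 lower as reported, other size factors, total counts, unstranded counts and no filter gave 99 to 103 and 7 to 8. A pseudocount of 0.25 CPM gave 227 higher and 62 lower genes, of which 193 and 46 lay outside the range of the other 5 libraries, and one of 5 CPM gave 46 and 0, with 43 and 0 outside. A limit of 1.5-fold gave 574 and 196, with 499 and 135 outside. Requiring the whole counting interval past 2-fold left 3 lower genes, 1 of them below the range. Centring on protein-coding genes left 3 lower genes below the range. Centring within GC deciles, chosen after the values were seen, gave 4 lower genes, 2 below the range. Against FL there were 28 higher and 0 lower genes, and against the median of the other 4 lines 4 and 0, and the hypoxia and glycolysis median was 0.39.

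Against that median of 4 lines the sign turned for the medians of collagens and matrix proteins (0.053), matrix proteases (0.041), p53 targets (-0.036), NRF2 targets (0.072) and lysosome genes (0.020), and for FRMD3 (-0.076), ROS1 (-0.014) and NHERF2 (-0.025). Against FL the sign turned for FRMD3 (-0.051) and NHERF2 (-0.025). Unstranded counts of list members outside the range were also added after the values were seen: 28 of 29 hypoxia and glycolysis genes and 25 of 41 cell cycle genes. A change of comparison line changes what is measured; the cause of the other shifts was not tested. At low CPM the pseudocount, not the counts, sets much of the fold, and 16 of the 102 higher genes were under 5 CPM in both libraries.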
